A study of Mus musculus with 38 samples.

Results

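The genes of mitochondrial fatty acid oxidation and ketone body use were followed in brown adipose tissue of C57BL/6J mice. The group holds 31 genes out of 29411 gene names on the array. They were chosen by name from the pathway, with earlier results of these data known. All 31 were present, and all 31 passed a filter that asked for signal above background by the scanner's flag on 6 or more of the 38 arrays, as 21862 gene names did. They comprise 5 acyl-CoA synthetases, 4 carnitine enzymes, 7 acyl-CoA dehydrogenases, 6 enzymes of the later steps of the spiral, 3 electron transfer genes, 3 acyl-CoA thioesterases and 3 enzymes of ketone body metabolism.

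Weaned mice, 3 to 4 weeks old, were allotted to 5 groups of 30 animals, and no genetic alteration is given for any of them. The LFC group received a low fat diet with 10% of its calories as fat, and the HFC group a high fat diet with 60% of calories as fat and raised sucrose. The HF5, HF20 and HF75 groups received the same high fat diet together with Kal-1, an aqueous plant formulation whose composition the labels do not give, at 5, 20 or 75 µg. Tissue of the LFC and HFC mice was taken on days 6, 10 and 14, then at weeks 0, 3, 6, 9, 12, 15 and 18, and that of the Kal-1 groups in weeks 3 to 18. There was 1 array for each group and time, giving 10 LFC, 10 HFC and 6 arrays per dose, so the time points serve as the replicates of a group. The labels do not say whether an array holds RNA of 1 animal or of several, and the design text speaks of 3 biological replicates, so p-values measure only the spread between these arrays.

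In this pathway a fatty acid is first joined to coenzyme A by an acyl-CoA synthetase, and its acyl group enters the mitochondrion through carnitine by way of the paired enzymes Cpt1 and Cpt2. There the acyl chain is shortened in repeated cycles of dehydrogenation, hydration, a further dehydrogenation and cleavage, while electrons pass through the electron transfer flavoprotein to the respiratory chain. Brown adipocytes are rich in mitochondria and burn fatty acids to make heat through Ucp1, and ketone bodies can serve them as a further fuel.

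Levels are log2 values of the background-corrected spot signal minus the 75th percentile of the same array, so 0 is the brightness of the probe at that percentile. They can be compared between arrays for 1 gene, but not between genes. The 75th percentile itself spanned 35.1 to 1209 intensity units around a median of 183.4, and between 37.62% and 79.8% of probes were well above background. The 11 arrays above 600 units are called bright here and the other 27 dim. The bright arrays were those of LFC at weeks 0, 3, 9 and 12, HFC at day 10 and week 3, HF20 at weeks 3, 6, 12 and 15, and HF75 at week 3, so brightness was unevenly spread over the groups. Of the 31 genes 25 were well above background on all 38 arrays, and the sparsest were Acsl6 with 11 arrays and Bdh1 with 29. Spots of 12 genes were saturated on some arrays, which limits how high these genes could read there, and Acaa2, Acadm, Acsl1, Etfb and Hadhb were saturated on 10 arrays each.

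The tissue label was checked against markers of brown adipocytes. Ucp1, the uncoupling protein of brown fat, lay between 3.38 and 8.57 on 37 arrays and at -3.07 on the HF75 array of week 3. On that array Cidea, a lipid droplet protein of brown fat, read -1.78 against 5.58 to 8.77 elsewhere, and Agt, a gene expressed in white adipocytes, read 2.78 against -4.76 to 1.01. Of 12 brown adipocyte markers 8 lay below all 37 other arrays there, which goes against the tissue label, while Dio2, Adrb3, Ebf2 and Prdm16 lay within the range of the others, the last 3 of them near or above its median. Of 6 white adipocyte markers Agt, Hoxc9 and Nrip1 lay above all other arrays and Lep, Retn and Hoxc8 within their range. Of the 31 oxidation genes 16 had their lowest value of all 38 arrays there, and the results that rest on it are given with and without it.

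The stretches just upstream of the start sites are shown for 4 enzymes of the spiral to which the dose comparison below returns, so that the regulatory sequence can be read beside the values. RefSeq windows of the GRCm38.p6 assembly matched 25 of the 31 genes, with 29 start sites. Each line holds the 250 bases before a start site, 5′ to 3′ on the strand of the gene, and capitals mark only the motif named for that gene. They are Hadhb, which encodes the beta subunit of the trifunctional protein, at chr5:30155003-30155252 on the plus strand, Acadm, the medium-chain dehydrogenase, at chr3:153944644-153944893 on the minus strand, Echs1, the short-chain enoyl-CoA hydratase, at chr7:140116422-140116671 on the minus strand, and Acads, the short-chain dehydrogenase, at chr5:115119347-115119596 on the minus strand.
Hadhb: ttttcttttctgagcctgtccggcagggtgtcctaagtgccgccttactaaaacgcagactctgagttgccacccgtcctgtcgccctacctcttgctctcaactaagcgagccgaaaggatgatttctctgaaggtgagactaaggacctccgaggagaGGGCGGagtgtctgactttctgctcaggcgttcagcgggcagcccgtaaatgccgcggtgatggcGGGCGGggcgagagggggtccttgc
Acadm: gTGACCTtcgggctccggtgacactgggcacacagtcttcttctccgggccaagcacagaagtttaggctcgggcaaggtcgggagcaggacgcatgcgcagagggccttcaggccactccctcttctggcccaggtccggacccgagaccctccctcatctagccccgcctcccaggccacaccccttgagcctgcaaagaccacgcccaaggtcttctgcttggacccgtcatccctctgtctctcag
Echs1: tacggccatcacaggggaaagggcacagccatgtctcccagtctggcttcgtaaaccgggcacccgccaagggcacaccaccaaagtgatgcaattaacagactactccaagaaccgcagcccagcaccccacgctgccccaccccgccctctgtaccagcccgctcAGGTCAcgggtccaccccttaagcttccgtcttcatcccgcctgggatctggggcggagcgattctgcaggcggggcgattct
Acads: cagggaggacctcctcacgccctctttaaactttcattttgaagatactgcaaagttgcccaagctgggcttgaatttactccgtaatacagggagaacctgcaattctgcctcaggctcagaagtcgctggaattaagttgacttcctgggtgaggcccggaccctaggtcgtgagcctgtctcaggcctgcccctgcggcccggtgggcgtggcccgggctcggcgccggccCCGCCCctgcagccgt

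The motif AGGTCA, the core that nuclear receptors such as the PPARs bind as repeats, was searched on both strands, where it reads TGACCT on the opposite one. Counted from the start site, it began at position -83 of Echs1 and, in the opposite orientation, at position -249 of Acadm. Windows of 5 genes held it, those of Acadm, Acadvl, Acsl6, Cpt1a and Echs1, which is 17.2% of the 29 windows against 14% of 32851 windows of all genes. The GC box GGGCGG, or CCGCCC on the opposite strand, stood at -90 and -25 of Hadhb and at -16 of Acads. The Echs1 window held it too, not marked above. It was found in 58.6% of the 29 windows against 32.7% of all windows. The motif CCAAT, or ATTGG on the opposite strand, was found in 48.3% against 33.8%. These matches describe letters and do not show binding.

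Hadha and Hadhb, which encode both subunits of the trifunctional protein that carries out the last 3 steps on long chains, lie head to head on chromosome 5. The Hadha start site is at 30154980 and the Hadhb start site at 30155253, with 272 bases between them, so the Hadhb sequence above is also the region upstream of Hadha.

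**Figure D1:**
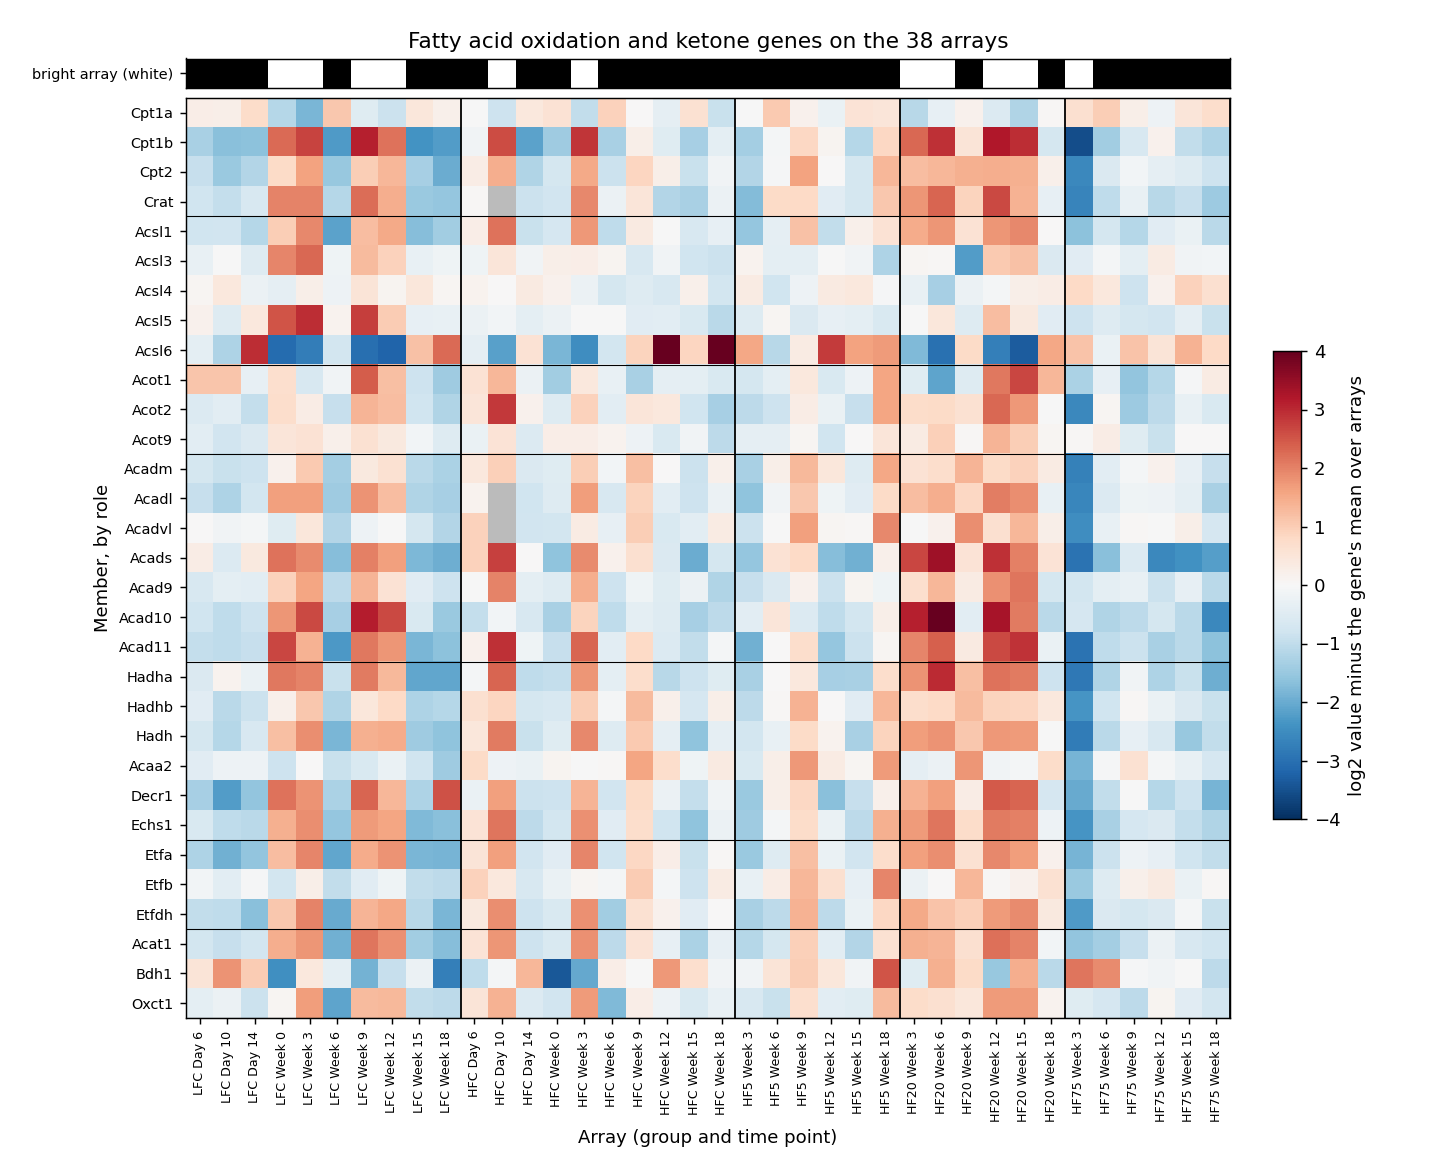
Heat map of the 31 genes (rows, grouped by their step) on the 38 arrays (columns, by group and time point), with colour for the log2 level relative to the array's 75th percentile minus the gene's own mean over the arrays. Most rows are high on the bright arrays and low on the HF75 array of week 3, while Cpt1a runs the other way.

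The levels of many of these genes moved together from array to array, and they moved with array brightness. Cpt1b, the carnitine palmitoyltransferase of muscle and brown fat, lay between 4.29 and 5.31 on the 10 bright arrays other than HF75 at week 3 and between -0.27 and 2.96 on the 27 dim arrays. These ranges did not overlap for Cpt1b, Crat, Acadl, Acads, Acad9, Acad11, Hadha, Hadh, Acat1 and Etfa, which is 10 of the 31 genes, all higher on the bright arrays. Over all genes tested 6.68% were higher on all of these bright arrays in the same way. Cpt1a, the carnitine palmitoyltransferase typical of liver, lay between -0.90 and 0.63 on the 10 bright arrays and between 0.06 and 2.02 on the dim arrays, so it tended the other way and its ranges overlapped.

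Within the 27 dim arrays, which share tissue and platform but differ in group and time, the median correlation over the 465 pairs of genes was 0.42, and 104 pairs lay below 0. Cpt1b correlated at 0.93 with Cpt2, at 0.92 with Acadm and at 0.89 with Acadl over these arrays. Cpt1a correlated at -0.41 with Cpt1b. The 2 isoforms of the entry enzyme thus did not vary alike among the dim arrays, as the plot of one against the other shows. In bulk tissue, fewer cells of a type and less RNA per cell cannot be told apart.

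**Figure D2:**
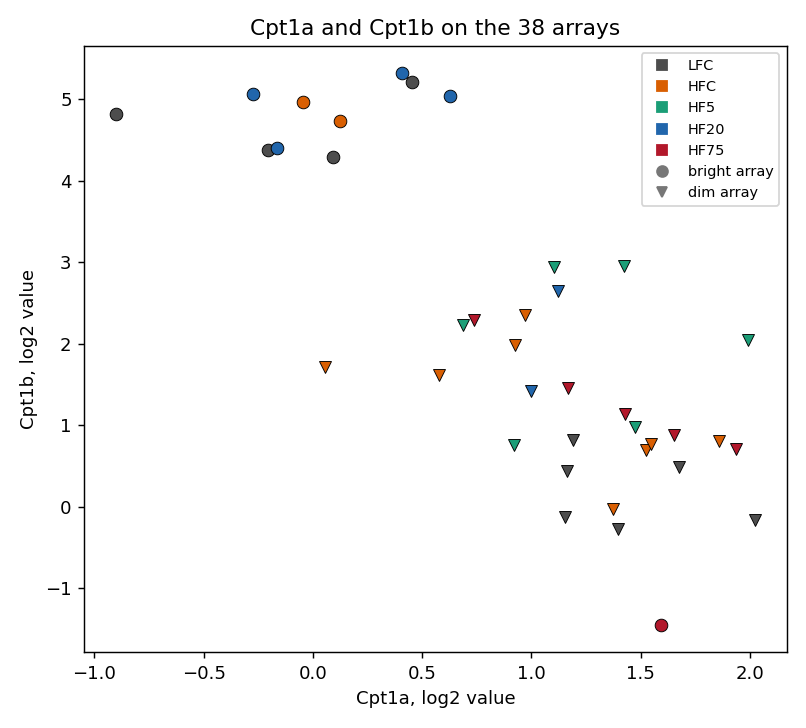
Log2 level of Cpt1a against that of Cpt1b, 1 point per array (38 arrays) coloured by group, with circles for bright and triangles for dim arrays. The bright arrays other than HF75 at week 3 lie at Cpt1b of 4.29 to 5.31 with Cpt1a at or below 0.63, and the HF75 array of week 3 is the lowest point for Cpt1b, at -1.44.

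The high fat diet was set against the low fat diet first. With the time point as a block, none of the 31 genes differed between HFC and LFC after adjustment over all genes (0%, limma), against 0% of all genes tested. The unadjusted p was under 0.05 for 3 of the 31 genes, against 7.06% of all genes tested, so their share was near the background. The median difference of the 31 genes, HFC minus LFC on the log2 scale, was 0.09, against 0.06 over all genes tested, with 18 genes higher and 13 lower in HFC.

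Acsl5 encodes an acyl-CoA synthetase of mitochondria and endoplasmic reticulum, on chromosome 19 at 55251861 to 55296628 (GRCm38.p6). It read 1.78, 2.57 and 5.24 on the lowest, the middle (median) and the highest of the 10 LFC arrays, and 1.21, 1.97 and 2.29 on those of HFC. The ranges overlapped, but every LFC array except those of day 10 and weeks 15 and 18 lay above every HFC array. The difference was -1.24 with an SE of 0.38, lower in HFC at 9 of 10 time points, with p = 0.0075 and an adjusted p of 0.639 (limma). On the bright arrays alone Acsl5 read 3.31 to 5.24 in the 4 LFC arrays and 2.16 to 2.27 in the 2 HFC arrays, which did not overlap. At the 6 time points whose LFC and HFC arrays were of the same brightness class the difference was -0.90 (SE 0.38), so it was smaller there.

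Acaa2 encodes the mitochondrial thiolase that cleaves the shortened chain. It ranged from 5.13 over a median of 6.01 to 6.56 in LFC, and from 6.28 over a median of 6.63 to 8.14 in HFC. The groups overlapped, with the HFC array of week 9 the highest and the LFC array of week 18 the lowest. The difference was 0.86 (SE 0.25), higher in HFC at 8 of 10 time points, with p = 0.0048 and an adjusted p of 0.639 (limma). Its spots were saturated on 4 LFC and 2 HFC arrays, and at time points of 1 brightness class the difference was 0.75 (SE 0.28).

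Etfb, the beta subunit of the electron transfer flavoprotein on chromosome 7 at 43444072 to 43457800, differed by 0.56 (SE 0.23), higher in HFC at 8 of 10 time points. Its arrays ran from 5.44 to 6.72 with a median of 6.03 in LFC and from 5.66 to 7.50 with a median of 6.48 in HFC. They overlapped over most of that span, and the adjusted p was 0.639 (limma).

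**Figure D3:**
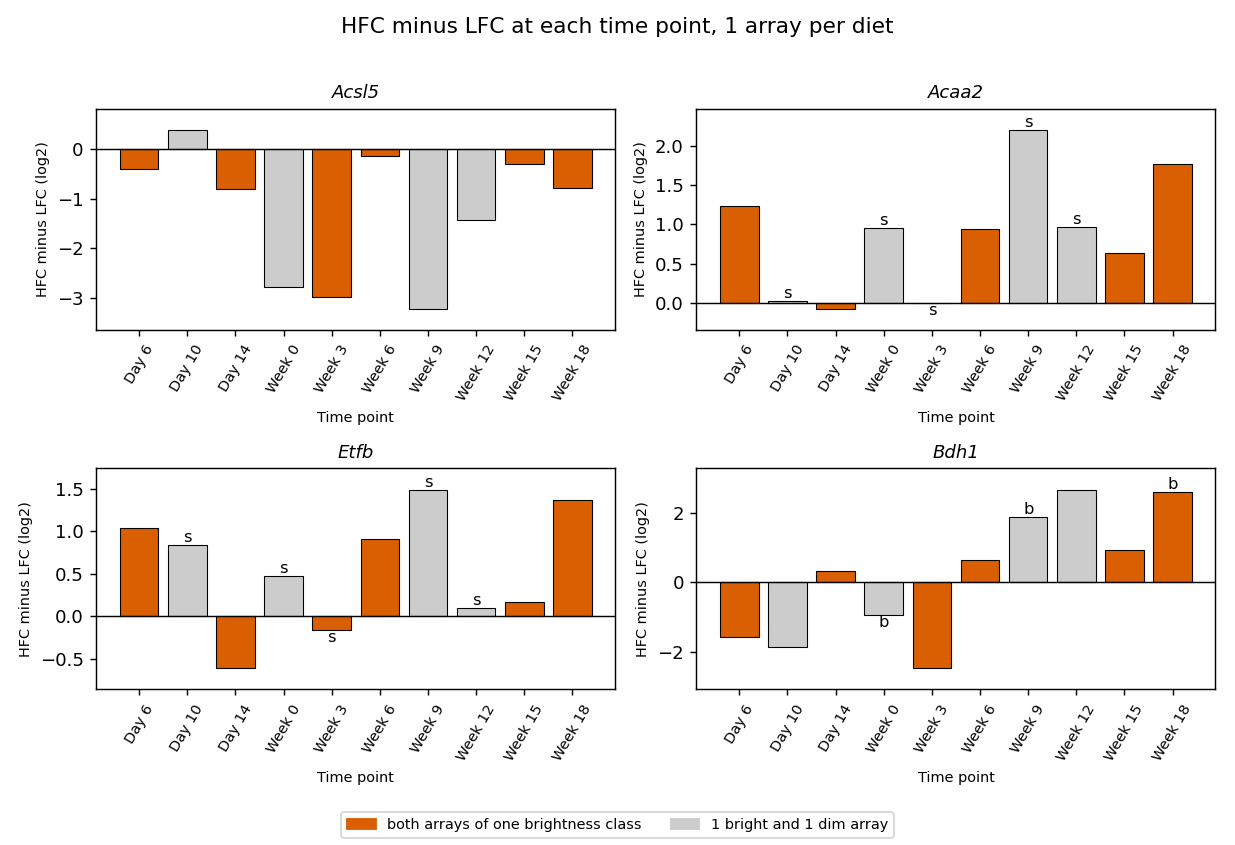
Difference HFC minus LFC on the log2 scale at each of the 10 time points for Acsl5, Acaa2, Etfb and Bdh1, in orange where both arrays were of 1 brightness class and in grey where they were not, with s for a saturated spot and b for a spot not well above background on either array. Acsl5 lies below 0 at 9 time points, and Bdh1 moves from below 0 at days 6 and 10 to above 0 from week 6.

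By step of the pathway, the median difference was 0.03 for the 4 carnitine enzymes, -0.09 for the 7 dehydrogenases, 0.21 for the 6 later enzymes, 0.56 for the 3 electron transfer genes and 0.09 for the 3 ketone body genes. At single time points the median was taken over the genes with a value, 28 at day 10 and 31 elsewhere, and ran from -1.69 at week 0 to 2.05 at day 10. At day 10 and weeks 0, 9 and 12, where 1 array was bright and the other dim, it was 2.05, -1.69, -0.92 and -1.43, and at the other 6 time points it ran from -0.07 to 1.29.

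For weeks 3 to 18 alone, again none of the 31 genes passed (0.00915% of all genes tested did), and 5 had an unadjusted p under 0.05, against 14.4% of all genes tested. Of these 5 genes 4 were acyl-CoA synthetases. Acsl5 was lower in HFC at 6 of 6 time points with a difference of -1.47 (SE 0.43), and its LFC arrays at 1.97 to 5.24 overlapped the HFC arrays at 1.21 to 2.29. Acsl4, a synthetase that prefers arachidonic acid, gave a difference of -0.63 (SE 0.25), below 0 at 6 of 6 time points, with LFC at 1.48 to 2.17 and HFC at 0.93 to 1.86. Acsl3, a synthetase of lipid droplets and endoplasmic reticulum, was lower with a difference of -0.98 (SE 0.42) at 5 of 6 time points. The adjusted p of these 3 synthetases lay between 0.334 and 0.336 (limma). A further, dimmer Acsl4 probe gave 0.06 over all 10 time points where the probe used here gave -0.30, so the probes of Acsl4 did not agree in sign.

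Acsl6, the synthetase known from brain, was well above background on only 1 of 6 LFC and 3 of 6 HFC arrays of these weeks. It differed by 2.51 (SE 1.01), higher in HFC at 4 of 6 time points, and the adjusted p was 0.336 (limma). Its values ran from -8.78 to -3.31 in LFC and from -8.06 to 0.44 in HFC and overlapped. Acaa2 kept its direction in these weeks, with a difference of 1.09 (SE 0.35) at 5 of 6 time points and an adjusted p of 0.334 (limma).

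The course over time was tested in the 20 LFC and HFC arrays. Scan day nearly coincided with time point, so a trend over days and a scan day cannot be told apart. None of the 31 genes had a trend that passed (1.68% of all genes tested did), and 2 had an unadjusted p under 0.05, against 21.3% of all genes tested. The slope of Acsl6 was 2.73 (SE 0.99) log2 units per 100 days, with an adjusted p of 0.125 (limma). Acads had a slope of -1.49 (SE 0.65) and Hadha one of -1.13 (SE 0.62), with adjusted p of 0.19 and 0.307 (limma). The median slope was -0.35 per 100 days, against 0.06 over all genes tested, and 28 of the 31 slopes were negative.

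The difference between the diets was then asked to depend on the day. None of the 31 genes passed (0% of all genes tested), and 2 had an unadjusted p under 0.05, against 15.3% of all genes tested. Bdh1, the dehydrogenase that interconverts hydroxybutyrate and acetoacetate, had the smallest p. Its HFC minus LFC differences on days 6, 10 and 14 were -1.55, -1.86 and 0.32, followed by -0.93 at week 0 and -2.45 at week 3. At weeks 6, 9, 12, 15 and 18 it was 0.65, 1.87, 2.65, 0.93 and 2.60. It was thus above 0 at all 5 time points from week 6 and below 0 at 4 of the 5 earlier ones. The slope of the difference was 3.05 (SE 0.73) per 100 days, with p = 0.0017 and an adjusted p of 0.0984 (limma). Bdh1, on chromosome 16 at 31422297 to 31458901, was well above background on 9 of 10 LFC and 7 of 10 HFC arrays, and with normexp background correction the slope was 0.40 (SE 0.94). Acsl6 had a slope of 3.50 (SE 1.49) and Acsl4 one of -0.71 (SE 0.38), with adjusted p of 0.296 and 0.418 (limma).

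Each dose of Kal-1 was compared with HFC at weeks 3 to 18. The 3 comparisons share the HFC arrays and are not independent of each other. At 5 µg none of the 31 genes passed (0% of all genes tested), and 0 had an unadjusted p under 0.05, against 5.47% of all genes tested. The median difference, HF5 minus HFC, was -0.01, with 15 genes higher and 16 lower. The 3 smallest p values belonged to Acsl4 with 0.45 (SE 0.25), Etfb with 0.53 (SE 0.33) and Cpt1a with 0.44 (SE 0.32), with adjusted p of 0.821, 0.822 and 0.835 (limma). Etfb came to -4e-04 under quantile normalization.

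At 20 µg the 31 genes lay mostly above HFC, but none passed (0% of all genes tested). An unadjusted p under 0.05 was found for 12 of the 31 genes, against 33.1% of all genes tested, so their share was near the background. The median difference, HF20 minus HFC, was 1.08, against -0.20 over all genes tested, and 28 of the 31 genes were higher. By time point the median of the 31 genes was 2.17, 1.87 and 2.38 at weeks 6, 12 and 15, where HF20 was bright and HFC dim. It was -0.28, 0.16 and 0.28 at weeks 3, 9 and 18, where both arrays were of the same class.

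Acad10, a member of the acyl-CoA dehydrogenase family, read -2.54 to 3.16 with a median of 1.13 in HF20 and -2.79 to -0.59 with a median of -2.23 in HFC. The groups overlapped through the HF20 arrays of weeks 9 and 18. The difference was 2.50 (SE 0.77) and positive at 4 of 6 time points, and its adjusted p was 0.118 (limma). Acot9, a mitochondrial thioesterase, was higher at 6 of 6 time points, by 0.89 (SE 0.30), with HF20 at 2.08 to 3.39 and HFC at 0.99 to 2.30, and the same adjusted p of 0.118 (limma). Acads differed by 2.11 (SE 0.72), also with an adjusted p of 0.118 (limma). With brightness class as a covariate these 3 differences were 0.89, 0.44 and 0.73.

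Acsl6 was not well above background on any HF20 array and on 3 of the 6 HFC arrays. It was 4.71-fold higher in HFC, taking the dimmest signal called well above background as the floor on each HF20 array. The adjusted p was 0.118 in the fit to all genes (limma). The measured means were -6.99 in HF20 and -4.11 in HFC, where the mean includes arrays not well above background, so the fold is not a lower limit. Acsl6 read -8.89 to -7.33 on the 10 bright arrays other than HF75 at week 3, and -7.42 to 0.44 on the 27 dim arrays. Of the HF20 arrays 4 were bright, and of the HFC arrays of these weeks only that of week 3. The fold makes no allowance for brightness.

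At 75 µg the genes lay mostly below HFC, and again none passed (0% of all genes tested). The unadjusted p was under 0.05 for 6 of the 31 genes, against 9.14% of all genes tested. The median difference, HF75 minus HFC, was -0.86, against -0.04 over all genes tested, with 26 genes lower and 5 higher. By time point it was -3.37 at week 3, on the array that stands apart, and -0.09, -0.91, -0.29, 0.36 and -0.91 at weeks 6 to 18. Without the HF75 array of week 3 the median difference was -0.54, with 27 genes lower, and 0 passed. At all 6 time points both arrays were of the same brightness class.

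Acads was lower in HF75 at 6 of 6 time points with a difference of -1.97 (SE 0.72), and its difference without the HF75 array of week 3 was -1.61 (SE 0.74). It read -1.89 to 0.50 with a median of -1.25 in HF75 and -0.93 to 2.96 with a median of 0.86 in HFC, and the groups overlapped. Hadhb was lower with a difference of -1.13 (SE 0.43), or -0.79 (SE 0.41) without that array, with HF75 at 3.15 to 5.56 and HFC at 4.84 to 6.79. Acsl4 was higher by 0.80 (SE 0.25) at 5 of 6 time points, or by 0.74 (SE 0.27) without that array, with HF75 at 0.86 to 2.61 and HFC at 0.93 to 1.86. The adjusted p was 0.536 for each of these 3 genes (limma), and between 0.17 and 1 over the other settings tried.

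The 3 doses were then compared with each other. The moderated F test over HF5, HF20 and HF75 called 12 of the 31 genes at an adjusted p under 0.05, against 13.4% of all genes tested, and 26 had an unadjusted p under 0.05, against 37.3%. The smallest adjusted p among the 31 was 0.0341 (limma). Of the 12 genes 5 belonged to the later steps of the spiral, 4 were acyl-CoA dehydrogenases, and 1 each was a carnitine enzyme, a thioesterase and a ketone body enzyme. In the pairwise comparisons adjusted over all genes, none of the 31 differed between HF20 and HF5 or between HF75 and HF5. Without the HF75 array of week 3, or with brightness class as a covariate, the F test called 0 of the 31.

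Between HF75 and HF20, 22 of the 31 genes differed at an adjusted p under 0.05 (limma), against 25.5% of all genes tested. Lower in HF75 were 21 genes, against 12.8% of all genes tested, and higher was 1 gene, Cpt1a, against 12.8%. The unadjusted p was under 0.05 for 25 genes, against 42%. The median difference, HF75 minus HF20, was -2.00, while the median of all genes tested was 0.29. By time point the median of the 31 genes was -3.13, -1.70, -1.16, -2.25, -2.16 and -0.99 from week 3 to week 18, so it lay below 0 at all 6. The 2 groups did not overlap for 12 of the 31 genes, against 4.67% of all genes tested.

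This result depended on the arrays. HF20 held 4 bright arrays of 6, and HF75 held 1, the array of week 3 that stands apart. Without that array 6 of the 31 genes passed, which were Acad10, Acad11, Acads, Crat, Hadh and Hadha, and the median was -1.56. All 6 were lower in HF75, against 4.19% of all genes tested, and 0 were higher, against 3.94%. With brightness class as a covariate 0 of the 31 and 0% of all genes tested passed, 14 had an unadjusted p under 0.05 and the median was -1.02. With that covariate and without that array, 0 passed, 2 had an unadjusted p under 0.05 and the median was -0.32, with 27 genes lower. At weeks 3, 9 and 18, where both arrays were of 1 brightness class, 0 passed and the median was -1.83. This includes the array that stands apart, with a median of -3.13 at week 3 against -1.16 at week 9 and -0.99 at week 18. When single time points were left out, 0 passed without week 6, 12 or 15. The count was 16 without week 3, 20 without week 9 and 23 without week 18. The median stayed between -2.20 and -1.64. These counts, and those at an unadjusted p in the models with brightness class, stand without the share of all genes. They are not read as a result about the 31 genes.

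**Figure D4:**
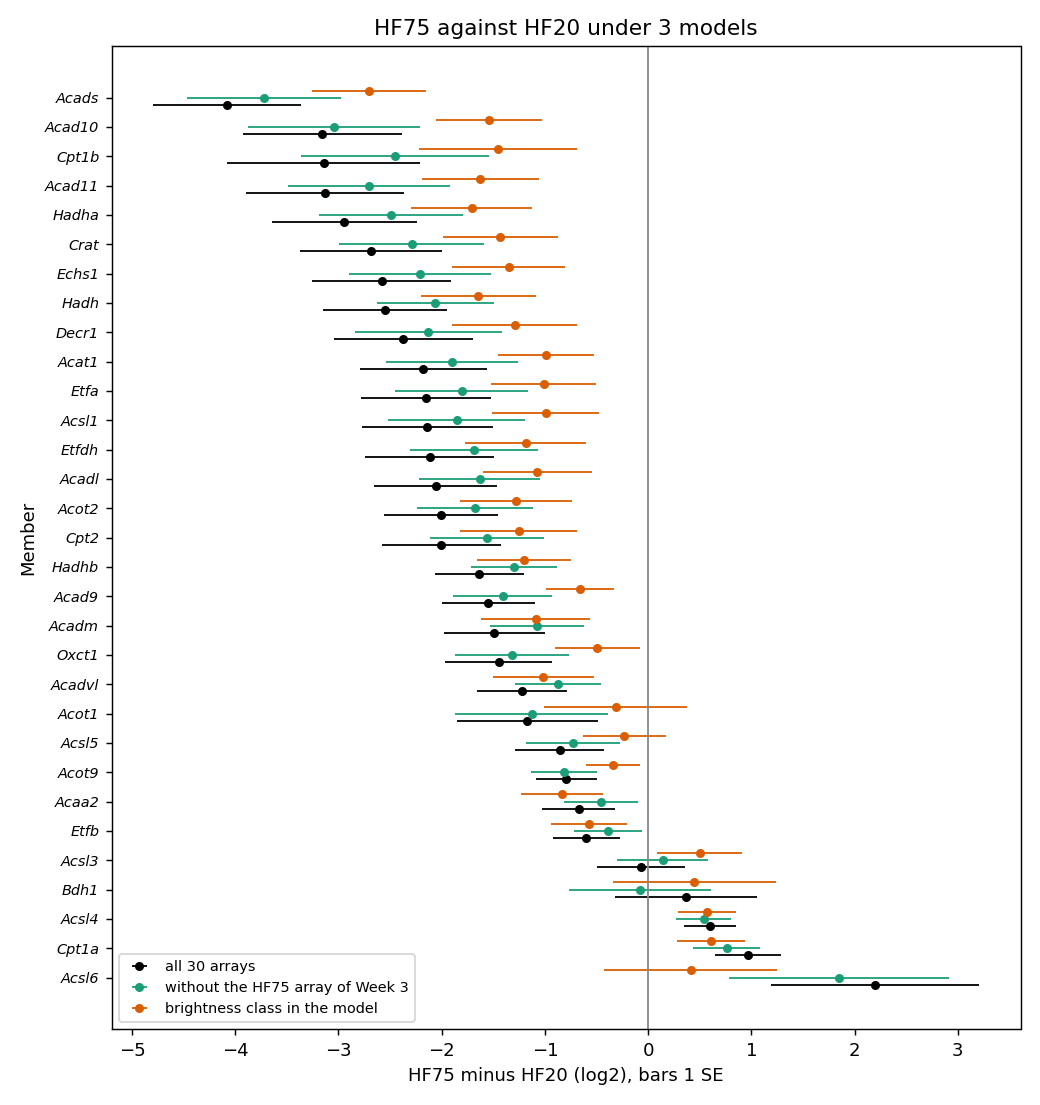
Difference HF75 minus HF20 (log2, with bars of 1 SE) for each of the 31 genes in 3 models. They are time point as block, the same without the HF75 array of week 3, and the first with brightness class as a covariate. In that order the median is -2.00, -1.56 and -1.02. Acsl3 lies at -0.07, 0.14 and 0.50, and Acads stays the lowest, at -4.08, -3.72 and -2.70. The model with brightness class and without that array is not drawn.

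Among the acyl-CoA dehydrogenases, which take the first step of each cycle, all 7 passed and all 7 were lower in HF75. Acads, for short chains, on chromosome 5 at 115110299 to 115119346, read 1.60, 3.40 and 4.44 on the lowest, middle and highest HF20 arrays and -1.89, -1.25 and 0.50 on those of HF75. Every HF75 array lay below every HF20 array. Acads fell by 4.08 on the log2 scale (SE 0.72), a 16.9-fold difference seen at 6 of 6 time points, and its adjusted p was 0.0111 (limma). With brightness class as a covariate and without the week 3 array the difference was -1.83, which no longer passed.

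Acad10 fell by 3.16 (SE 0.77), from arrays at -2.54 to 3.16 in HF20 to arrays at -4.06 to -2.16 in HF75. These overlapped only through the HF20 array of week 18. Acad11, which acts on very long chains, fell by 3.13 (SE 0.77), with HF20 at -0.69 to 2.47 and HF75 at -3.39 to -1.27, which did not overlap. The adjusted p was 0.0149 and 0.015 (limma).

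Acadl, the long-chain dehydrogenase, fell by 2.06 (SE 0.60), with an adjusted p of 0.0217 (limma). It read 3.24 to 5.59 with a median of 4.86 in HF20 and 0.93 to 3.35 with a median of 3.05 in HF75, and overlapped through the HF20 array of week 18. Acadm fell by 1.49 (SE 0.49), from 6.01 to 7.04 in HF20 to 2.97 to 5.84 in HF75, with no overlap. Acadvl, the very-long-chain dehydrogenase, fell by 1.22 (SE 0.44), with HF20 at 6.30 to 8.18 and HF75 at 3.84 to 6.57, and the groups overlapped. The adjusted p was 0.0316 for Acadm and 0.0442 for Acadvl (limma), and both had saturated spots on 4 of the 6 HF20 arrays. Acad9, known also as an assembly factor of respiratory complex I, fell by 1.55 (SE 0.45).

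Of the 6 enzymes of the later steps 5 passed, all lower in HF75. Hadha, which holds the hydratase and the second dehydrogenase of the trifunctional protein, read 1.04, 3.81 and 4.85 on the lowest, middle and highest HF20 arrays and -0.97, 0.65 and 1.75 on those of HF75. The overlap came from the HF20 array of week 18, which was dim. Hadha fell by 2.94 (SE 0.70), or 7.69-fold, with an adjusted p of 0.0148 (limma). Its partner Hadhb, which carries the thiolase, read 5.95 to 6.79 in HF20 and 3.15 to 5.56 in HF75 without overlap, and fell by 1.64 (SE 0.43), with an adjusted p of 0.017 (limma). Hadhb was saturated on 4 of the 6 HF20 arrays and Hadha on none, so these 2 sizes cannot be set against each other.

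Hadh, the short-chain hydroxyacyl-CoA dehydrogenase on chromosome 3 at 131233419 to 131272101, read 4.52, 6.24 and 6.34 on the lowest, middle and highest HF20 arrays and 1.74, 3.52 and 4.21 on those of HF75. The groups did not overlap, and 2 of the 6 HF20 spots were saturated. Hadh fell by 2.55 (SE 0.60), with an adjusted p of 0.0146 (limma). Echs1 fell by 2.58 (SE 0.67), with HF20 at 4.18 to 6.52 and HF75 at 2.04 to 3.82, also without overlap and with 1 saturated HF20 spot. Decr1, which is needed for unsaturated chains, fell by 2.37 (SE 0.67). Acaa2 did not pass, with a difference of -0.67 (SE 0.35) and an adjusted p of 0.151 (limma), and its HF20 arrays were saturated at 4 of 6 time points.

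All 4 carnitine enzymes passed, 3 lower and 1 higher in HF75. Cpt1b, on chromosome 15 at 89416405 to 89425862, read 1.42, 4.72 and 5.31 on the lowest, middle and highest HF20 arrays and -1.44, 1.01 and 2.29 on those of HF75. The HF20 array of week 18 lay within the HF75 range. Cpt1b fell by 3.14 (SE 0.93), or 8.82-fold, with an adjusted p of 0.0231 (limma). With brightness class and without the week 3 array its difference was -0.02. A second probe of Cpt1b, which correlated with the first at 0.98, gave -3.81.

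Cpt1a, on chromosome 19 at 3322326 to 3385735, read -0.27, 0.52 and 1.12 on the lowest, middle and highest HF20 arrays and 0.74, 1.51 and 1.94 on those of HF75. Its groups overlapped, and the higher values were those of HF75. Cpt1a rose by 0.97 (SE 0.32), a 1.95-fold difference seen at 6 of 6 time points (limma, adjusted p = 0.0345), and its second probe gave 0.89. Without the HF75 array of week 3 it no longer passed, and its lowest value over the settings was 0.21. Cpt2, on the inner membrane, fell with a difference of -2.00 (SE 0.57), from 5.16 to 6.41 in HF20, where 4 of 6 arrays were saturated, to 2.40 to 4.85 in HF75, without overlap. Crat, which buffers short acyl groups on carnitine, fell by 2.69 (SE 0.69), with HF20 at 2.94 to 5.91 and HF75 at 0.64 to 2.99 overlapping at 1 array each. The adjusted p was 0.0208 for Cpt2 and 0.0161 for Crat (limma).

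Of the 5 acyl-CoA synthetases 1 passed. Acsl1, the main synthetase of adipose tissue and heart, fell by 2.14 (SE 0.63), with HF20 at 4.79 to 6.71 and HF75 at 3.12 to 4.51, without overlap, and an adjusted p of 0.0229 (limma). Its probe was saturated on 4 HF20 arrays, and 2 dimmer probes of Acsl1 that were never saturated gave -3.48 and -3.15. Acsl5 and Acsl3 differed by -0.86 (SE 0.43) and -0.07 (SE 0.42), and Acsl4 by 0.60 (SE 0.25). None of these 3 passed, with adjusted p of 0.131, 0.908 and 0.0778 (limma). With the same floor on the HF20 arrays Acsl6 was 2.94-fold higher in HF75. Only 2 of 6 HF75 arrays were above background, so this is not a lower limit. Measured means of Acsl6 were -4.79 in HF75 and -6.99 in HF20, with an adjusted p of 0.102 (limma). Its fitted difference of 2.20 became 0.41 with brightness class and -0.55 with brightness class and without the week 3 array, and a second Acsl6 probe, above background on 4 of the 38 arrays, gave 0.50.

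Of the electron transfer genes, Etfdh, the oxidoreductase that passes electrons to ubiquinone, fell by 2.12 (SE 0.63) and Etfa fell by 2.15 (SE 0.63), with adjusted p of 0.0229 and 0.022 (limma). Etfdh ran from 5.07 to 6.57 in HF20, with 3 saturated arrays, and from 2.42 to 4.60 in HF75, without overlap, and a dimmer probe that was never saturated gave -3.22. Etfa was saturated on 1 HF20 array. Etfb did not pass, at -0.60 (SE 0.33) and with 4 saturated HF20 arrays.

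Among the ketone body genes, Acat1, the thiolase that forms and splits acetoacetyl-CoA, fell by 2.18 (SE 0.61), with HF20 at 3.17 to 5.48 and HF75 at 1.70 to 3.02, without overlap. Oxct1, the transferase that commits acetoacetate to use as fuel, fell by 1.45 (SE 0.52), with HF20 at 4.85 to 6.41 and HF75 at 3.66 to 4.81 and 2 saturated HF20 spots, and 2 further probes gave -2.10 and -2.59. The adjusted p was 0.0201 for Acat1 and 0.0443 for Oxct1 (limma). Bdh1 differed by 0.37 (SE 0.69), with an adjusted p of 0.69 (limma). Of the thioesterases, which release free fatty acids from coenzyme A, Acot2 fell by 2.01 (SE 0.55), with an adjusted p of 0.019 (limma), while Acot9 at -0.79 (SE 0.30) and Acot1 at -1.17 (SE 0.69) did not pass. Acot1 and Acot2 are close copies side by side on chromosome 12, each read by 1 probe, and cross-hybridisation between them was not tested.

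**Figure D5:**
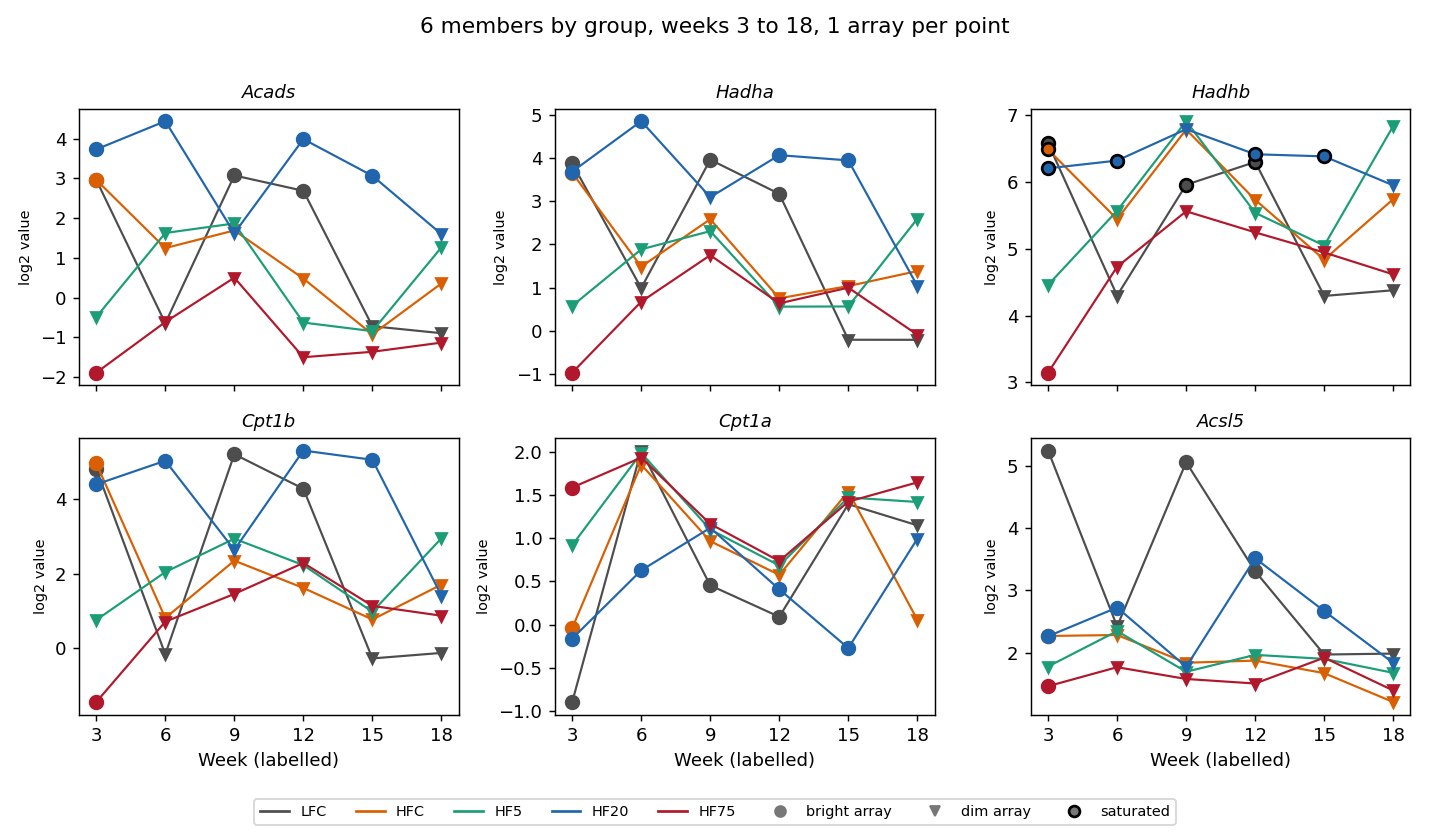
Log2 level on each array of weeks 3 to 18 for Acads, Hadha, Hadhb, Cpt1b, Cpt1a and Acsl5 in LFC, HFC, HF5, HF20 and HF75 (6 arrays each), with circles for bright arrays, triangles for dim arrays and a black edge for saturated spots. HF20 lies above HF75 without overlap for Acads and Hadhb, while Cpt1a is higher in HF75.

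Genes that act beside these enzymes were read from a list of 40 pathway partners. Between HF75 and HF20, 22 of the 40 were lower and 2 higher at an adjusted p under 0.05, with a median of -1.46, against 12.8% of all genes tested in each direction. Without the HF75 array of week 3, 7 were lower and 1 higher, against 4.19% and 3.94% of all genes tested. With brightness class as a covariate 0 of the 40 and 0% of all genes passed. Ppara, the nuclear receptor that drives many oxidation genes, fell by 4.55 (SE 1.03), Ppargc1b, its coactivator, fell by 4.04 (SE 0.95), and Ppargc1a fell by 3.25 (SE 0.86), with adjusted p of 0.0146, 0.0146 and 0.0171 (limma). Plin5, which links lipid droplets to mitochondria, fell by 3.71 (SE 0.95). Cd36, a fatty acid transporter of the cell surface, rose by 0.94 (SE 0.34), and Ncoa2, a nuclear receptor coactivator, rose 2.15-fold (adjusted p = 0.029, limma). Without the week 3 array neither Cd36 nor Ncoa2 passed, with adjusted p of 0.0749 and 0.0528 (limma). The 1 partner called higher without that array was thus another gene. Without the week 3 array and with brightness class, the differences were -1.13 (SE 0.45) for Ppara and -0.90 (SE 0.31) for Ppargc1b. In that fit Ppargc1a gave -0.61 (SE 0.54), Plin5 -0.62 (SE 0.48), Cd36 0.50 (SE 0.39) and Ncoa2 1.1 (SE 0.44). None of these genes passed there. Of 17 respiratory chain genes 13 passed, all lower, and all 17 had a difference below 0, with a median of -1.60. Without the week 3 array 4 passed, and with brightness class 0.

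Markers of several cell types were read beside the oxidation genes in this comparison. Of 12 brown adipocyte markers 6 passed, all lower in HF75, and only 1 of the 12 had a difference above 0, with a median of -2.25. Their mean level ran from 1.85 to 4.11 over the HF20 arrays and from -2.90 to 1.96 over the HF75 arrays. Over the 5 HF75 arrays other than week 3 it ran from 1.09 to 1.96. Without that array 0 of the 12 passed and their median was -1.21, and with brightness class 0 passed. Of 14 skeletal muscle markers 0 passed, all 14 were lower in HF75 with a median of -0.97, and their mean level ran from -3.81 to 4.69 in HF20 and from -2.92 to 5.28 in HF75. Of 5 white adipocyte markers 1 passed as higher and 2 as lower, and of 8 macrophage markers 1 passed as lower, while none of 8 lymphocyte and 6 erythroid markers passed. Without the week 3 array 2 white adipocyte markers and 1 macrophage marker passed as lower and 0 markers of these types passed as higher. With the muscle marker mean as a covariate 19 of the 31 oxidation genes passed, and the share of all genes is not given for that fit. The part of the brown adipocyte markers in the result was not tested.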

How the data were processed

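Total RNA of brown adipose tissue was labelled with Cy3 and hybridised to mouse arrays with 1 colour. The 38 arrays were spread over 32 slides and 12 scan days. The spot values were used in intensity units as deposited, namely the processed signal, from which the authors' scanner software had removed background and spatial trends without scaling 1 array to another. Per the file headers these values come from Feature Extraction 10.5.1.1, while the submitters' processing notes name Agilent Feature Extraction 9.1. A further deposited file of the authors' own log2 fold changes relative to LFC at each time point was not used. No sample column was left unmapped (0).

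The log2 processed signal minus the 75th percentile of its array was used. A gene name was represented by its probe of highest mean signal and was tested if that probe was flagged as well above background on 6 or more arrays. Groups were taken from the sample labels, weeks were counted from day 14 with 7 days each, and time points served as replicates. Differences were estimated with lmFit and eBayes of limma 3.58.1 (two-sided) with the time point as a block and Benjamini-Hochberg adjustment over all 21862 genes at a threshold of 0.05. Computations ran in R 4.3.3 and its data.table package, version 1.17.8. The trend over days had the diet as a term and no block. The block rests on the labelled time point and not on shared animals. The comparisons of weeks 3 to 18 shared 1 fit of 30 arrays. The fits were first tested on simulated data in which the changed genes were known. The number of arrays, and how far spots stood above background, limit the precision.

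The 31 genes, the marker and partner lists, the tests and the boundary of 600 intensity units between bright and dim arrays were chosen with earlier results of these data known. The rule for named genes was all genes that passed, with values by array for the 6 with the smallest p where more passed, the 3 smallest p in each comparison, and 14 enzymes named whatever their values (Cpt1a, Cpt1b, Cpt2, Acsl1, Acadvl, Acadl, Acadm, Acads, Hadha, Hadhb, Etfdh, Acat1, Bdh1 and Oxct1). Partner genes and markers are named only where a result turns on them. Crat, Acadl and Acadvl have no value on the HFC array of day 10, where the spot was marked as an outlier, and the fits dropped that array for these genes. Of the 31 genes 22 were read by 1 probe. Alternatives were quantile normalization, normexp (offset 50), no filter or a stricter one, the mean of all probes, no block, brightness as a covariate (class or log2 percentile), time points of 1 brightness class, array weights, slide or scan day as a random block, the muscle marker mean as a covariate, all arrays in 1 fit, day 14 and week 0 joined, each time point left out, and the HF75 array of week 3 left out. Leaving out that array with brightness class in the model, and leaving out the HFC array of week 12, were chosen after seeing the data.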

Additional observations from a re-analysis of the deposited data

Results flagged for a closer look

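Of 155 groups of 6 to 10 arrays tested for a single far value, 6 had one, each the lowest of its group, and chance flags about 1 group in 20. On the HF75 array of week 3, Cpt2 read 2.40, Acadvl 3.84 and Etfdh 2.42, where 8 of 12 brown adipocyte markers also lay below all other arrays. The HF20 array of week 18 read 5.16 for Cpt2 and the HF20 array of week 6 read 0.34 for Acsl4. The HF75 array of week 18 read -4.06 for Acad10.

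The effects of the 20 and 75 µg doses against the same HFC arrays differed for 22 of the 31 genes, against 25.5% of all genes tested. This is by the test of HF75 minus HF20 at an adjusted p under 0.05 (limma). Without the HF75 array of week 3, 6 of the 31 passed, all lower, against 4.19% of all genes tested. With brightness class as a covariate 0 of the 31 and 0% of all genes tested passed. Among the dehydrogenases the difference was -4.08 for Acads, -3.16 for Acad10, -3.13 for Acad11, -2.06 for Acadl, -1.55 for Acad9, -1.49 for Acadm and -1.22 for Acadvl. Among the later enzymes it was -2.94 for Hadha, -2.58 for Echs1, -2.55 for Hadh, -2.37 for Decr1 and -1.64 for Hadhb. The carnitine enzymes gave -3.14 for Cpt1b, -2.69 for Crat, -2.00 for Cpt2 and 0.97 for Cpt1a. The remaining genes gave -2.18 for Acat1, -1.45 for Oxct1, -2.15 for Etfa, -2.12 for Etfdh, -2.14 for Acsl1 and -2.01 for Acot2. Acads was the lowest of the 22 also with brightness class as a covariate, at -2.70, where its adjusted p was 0.113 (limma).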

How the results depend on the processing

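Counts of called genes kept within 1.5 times the reported count, or at 0, in 181 alternative fits, rose beyond that in 8 and fell below it in 21. The median differences moved by less than their replicate spread in 208 fits and by more in 2. That spread is the SD of the median over time points, or the median SE for the 2 tests over days. It is wide, as for HF20 against HFC with medians of -0.28 to 2.38, so this tally is not read as stability. For HF75 against HF20, 0 of the 31 genes passed with normexp, with the log2 75th percentile or brightness class as a covariate, at time points of 1 brightness class, and without the HF75 array of week 3 with brightness class. Without that array alone 6 passed, and leaving out single time points gave 0 to 23. Its medians that moved were -1.02 with brightness class and -0.32 with brightness class and without that array. For the differences among doses, 0 passed with normexp, with no filter, with either brightness covariate, with the muscle covariate, and without the HF75 array of week 3, with or without brightness class. With the slide as a block or with array weights 23 passed, and leaving out single time points gave 0 to 19. Array weights gave 21 genes for HF20 against HFC, 1 for HFC against LFC and 1 for the trend over days. Leaving out single time points gave 0 to 6 for HF20 against HFC, with 6 without week 3, and 0 to 1 for the trend, with 1 without day 14. Etfb in HF5 against HFC turned from 0.53 to -4e-04 under quantile normalization. Of these fits with genes called, the share of all genes is given only for HF75 against HF20 without the HF75 array of week 3. The other counts are therefore not read as a result about the 31 genes. The cause was not tested for these changes.

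Without the replicate block, that is with no term for the time point, 7 genes passed among the doses in place of 12. Between HF75 and HF20 it was 19 in place of 22, and no other count changed. The share of all genes is not given for these fits either. Saturation limits the brightest genes, and signal near background limits Acsl6 and Bdh1.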

Other observations

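Partner genes of the pathway gave no call between the diets, where 0 of 40 passed and 2 had an unadjusted p under 0.05, both lower in HFC (limma). Among brown fat genes, Ucp1 was higher in HFC by 1.17 (SE 0.33) and Elovl3, an elongase of very long fatty acids, was lower with a difference of -2.98 (SE 0.83), each with an adjusted p of 0.639 (limma). Between HF75 and HF20, Mlycd, which breaks down the Cpt1 inhibitor malonyl-CoA, fell by 2.09 (SE 0.59), with an adjusted p of 0.0206 (limma). Acacb, which makes it, also differed by -2.09, but with an SE of 0.84 it did not pass, so no contrast between the 2 genes is shown. Of the HF75 against HF20 calls in the partner list, Dci and Peci, isomerases for unsaturated chains, fell by 2.33 (SE 0.66) and 1.28 (SE 0.41). Without the HF75 array of week 3, 7 of the 40 partners passed as lower and 1 as higher, and with brightness class 0 passed.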
